A study of Arabidopsis thaliana with 36 samples.

Results

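Photosystem II splits water in the thylakoid membrane of the chloroplast, and the chloroplast genome itself encodes most of its core. Of these plastid genes, 10 are described here: psbA, psbB, psbC, psbD, psbE, psbF, psbH, psbI, psbJ and psbT. They were taken by gene symbol, each needing a probe set on the array that names no other gene. All 10 have 1 such probe set, and all 10 were bright enough to test, among 6846 tested genes of 13356 with a probe set of their own. The tested genes included 62 from the plastid genome.

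The RNA came from shoots (all aerial tissue) of 10-day-old wild-type Arabidopsis thaliana seedlings of the Columbia accession, raised on agar plates containing sucrose. Days had 16 h of light and 8 h of dark, and plants were taken at Zeitgeber time (ZT, counted in hours from lights on) 0, 6, 12 and 18, the last in the dark. Each extract was divided into RNA without polysomes, RNA on small polysomes and RNA on large polysomes, and 3 replicates of each time and fraction gave 36 arrays. Seedlings that overexpress CCA1, which the series' design also names, are not analysed here. The labels do not say that replicates were grown apart, and p-values then cover only the spread among these arrays, which may be technical. In whole shoots, fewer cells of a type and less RNA per cell cannot be told apart. RCA, a marker of green tissue and the only 1 of 10 listed with a probe set of its own, lay between 10.83 and 13.55 (log2). Of 11 root markers 3 had one: EXP7 and EXP18 stayed at the bottom of the scale (at most 2.38 and 2.50), while PYK10, whose product is a beta-glucosidase, lay between 8.65 and 11.19.

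The reaction centre of photosystem II is a pair of related proteins, D1 from psbA and D2 from psbD. The inner antenna proteins CP47 and CP43, from psbB and psbC, pass light energy to it, and cytochrome b559, from psbE and psbF, sits beside it with several short subunits that span the membrane. D1 is damaged by light and replaced all the time, so psbA is one of the most heavily translated plastid genes in leaves. Translation runs on plastid ribosomes of the bacterial type, often from transcripts that carry several genes. Most plastid mRNAs lack a stable poly(A) tail, and the labels' protocols give priming by oligo(dT). Which part of each plastid transcript pool was read here was not tested.

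The coding lengths in the gene table of assembly TAIR10.1 run from 102 bases for psbT to 1527 for psbB. Known plant transcription units join psbB, psbT and psbH (with petB and petD), psbE, psbF and psbJ (with psbL), and psbD and psbC (with psbZ), whose reading frames overlap. The gene psbI lies behind psbK, and psbA stands alone. A probe set reads any transcript that holds its stretch, so precursors and processed forms are counted together.

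Values are log2 summaries relative to the average mRNA of the array, where a difference of 1 is a 2-fold change. Ribosome loading here means the large polysomal value minus the one without polysomes in the same extract (a time and a replicate number), so there were 12 loading values per gene. Across all times the 10 transcripts did not share one distribution over the fractions. Of the 10, 7 were lower in large polysomes than in non-polysomal RNA, psbD was higher, and psbC and psbH did not pass the test at a Benjamini-Hochberg adjusted p under 0.05 in limma. Over all tested genes 37.5% were lower and 40.2% higher, so 7 of 10 lower lies above the array's own share and 1 of 10 higher lies below it. The median loading of the 10 genes was -1.48, against 0.03 over all tested genes.

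**Figure D1:**
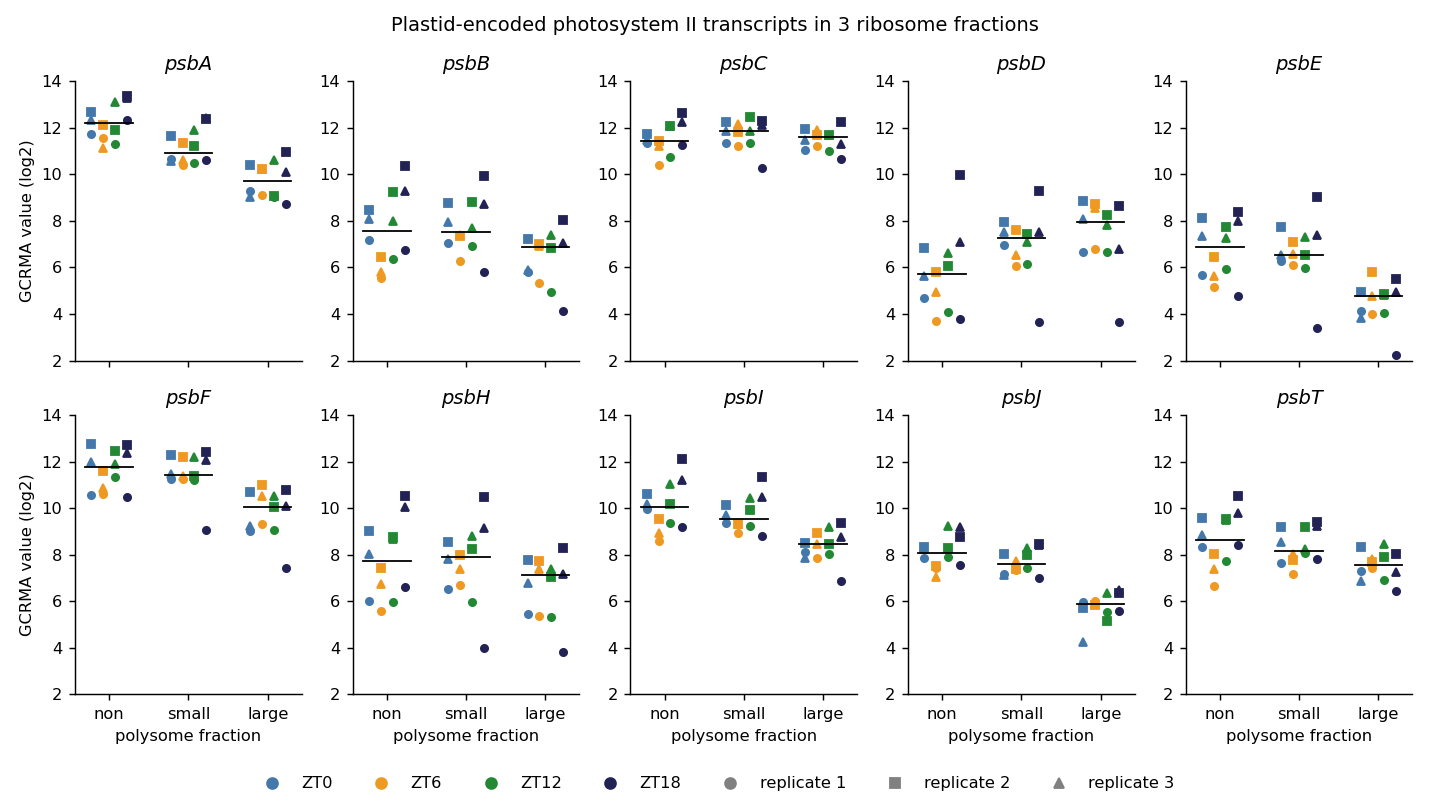
Deposited log2 values of the 10 genes (vertical axis, each panel a gene) in the non-polysomal, small polysomal and large polysomal fractions (horizontal axis). Each point is 1 array, coloured by time and shaped by replicate, and the bar is the median of 12 arrays; psbD rises from 5.73 to 7.95 while psbA falls from 12.21 to 9.70.

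Among the reaction centre genes, psbA (locus ArthCp002) read 11.13, 12.21 and 13.34 in non-polysomal RNA as the lowest, median and highest of 12 arrays. On large polysomes the same 3 values were 8.74, 9.70 and 10.96. These ranges did not overlap, and the difference was -2.50 ± 0.28 (SE, adjusted p = 1.6e-09 in limma), below 0 in 12 of 12 extracts. It was the lowest mean loading of the 10 genes.

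The other reaction centre gene went the opposite way. Non-polysomal psbD (ArthCp017) read 3.68, 5.73 and 9.98 (lowest, median, highest), small polysomal psbD 3.65, 7.27 and 9.26, and large polysomal psbD 3.66, 7.95 and 8.87. The ranges overlapped widely, since the ZT18 arrays held both the highest and some of the lowest values. The large minus non-polysomal difference was 1.69 ± 0.60 (SE, adjusted p = 0.012) and lay above 0 in 9 of 12 extracts. Its call ended without replicate 3, where the difference was 1.66 with an adjusted p of 0.119, and held under the other 40 of 41 alternative settings. Extract by extract, psbD loading exceeded psbA loading by 4.19 ± 1.28 (SD, n = 12), in 12 of 12 extracts, although both have coding lengths of 1062 bases.

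**Figure D2:**
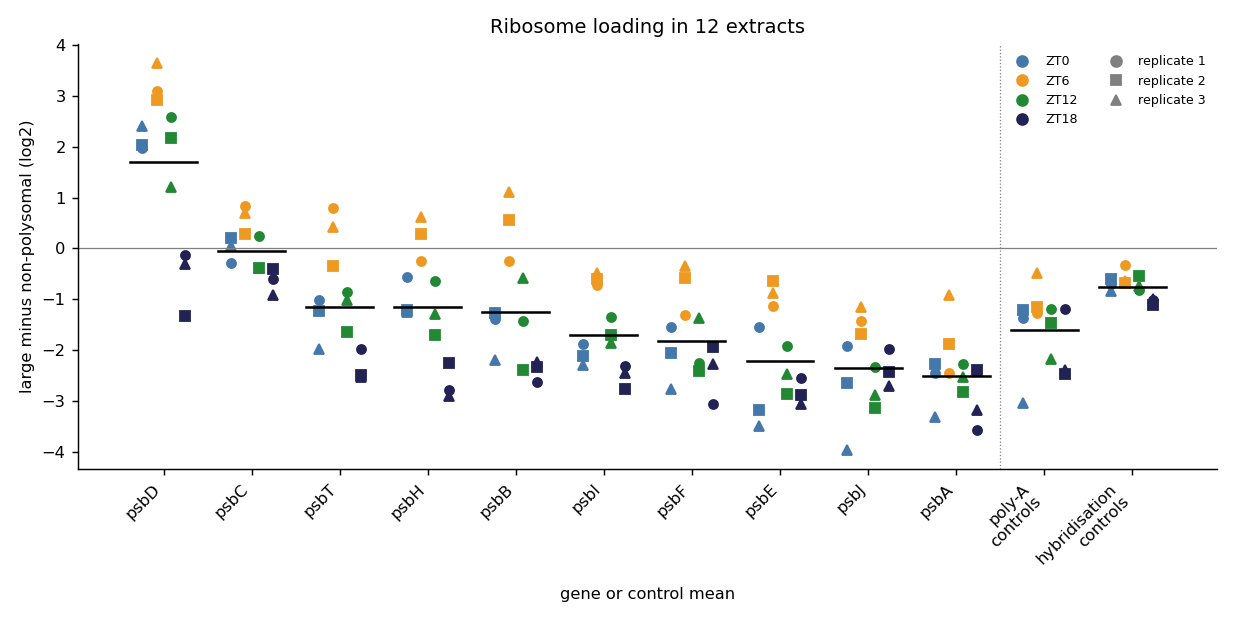
Large minus non-polysomal difference (log2, vertical axis) of each of the 10 genes and of the mean of 2 sets of control probe sets, with 1 point per extract and a bar at the mean of 12. The points of psbD lie above 0 in 9 of 12 extracts, those of psbC scatter around 0, and psbA, psbE, psbF, psbI, psbJ and both control means are below 0 in 12 of 12.

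The inner antenna genes also parted from each other. For psbC (ArthCp018) the lowest, median and highest values were 10.40, 11.43 and 12.63 in non-polysomal RNA, and 10.66, 11.59 and 12.22 on large polysomes. The fractions overlapped almost fully, and the difference was -0.06 ± 0.23 (SE, adjusted p = 0.823), below 0 in 6 of 12 extracts. For psbB (ArthCp049) the non-polysomal values were 5.55, 7.58 and 10.37 and the large polysomal ones 4.11, 6.88 and 8.03, which overlapped. Its difference of -1.25 ± 0.47 (SE, adjusted p = 0.017) was below 0 in 10 of 12 extracts. Without replicate 3 it was -1.39 with an adjusted p of 0.091.

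Both cytochrome b559 genes were lower on large polysomes. For psbE (ArthCp039), which encodes the alpha subunit, the lowest, median and highest non-polysomal values were 4.76, 6.86 and 8.36. Its large polysomal values were 2.22, 4.79 and 5.80, the lowest of them at the bottom of the scale, and the difference was -2.22 ± 0.48 (SE, adjusted p = 0.00012). The values of psbF (ArthCp038), the beta subunit, were 10.49, 11.75 and 12.75 without polysomes and 7.43, 10.07 and 11.01 on large polysomes, a difference of -1.82 ± 0.38 (SE, adjusted p = 6.2e-05). The ranges of both genes overlapped at their ends, but within extracts the difference was below 0 in 12 of 12 for each.

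Of the short subunits, psbJ (ArthCp036), whose product lies near cytochrome b559, had no overlap between fractions. Its non-polysomal values ran from 7.04 to 9.23 (median 8.07) and its large polysomal values from 4.27 to 6.49 (median 5.87), a difference of -2.35 ± 0.21 (SE, adjusted p = 1.8e-11). For psbI (ArthCp006), whose product binds D1 early in assembly, the difference was -1.71 ± 0.30 (SE, adjusted p = 5.7e-06), below 0 in 12 of 12 extracts. Its values ran from 8.57 to 12.13 without polysomes and from 6.89 to 9.36 on large polysomes.

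The products of psbT and psbH lie on the CP47 side of the complex. For psbT (ArthCp050), non-polysomal values of 6.66 to 10.50 and large polysomal values of 6.43 to 8.46 overlapped, with a difference of -1.15 ± 0.28 (SE, adjusted p = 0.00039). For psbH (ArthCp052), which encodes a phosphoprotein, they ran from 5.59 to 10.53 and from 3.83 to 8.27, and the difference of -1.16 ± 0.62 (SE) missed the threshold with an adjusted p of 0.088. Both differences were below 0 in 10 of 12 extracts. With the extract as a replicate block, which compares fractions within an extract, psbH was lower too (adjusted p = 8.2e-08), making 8 lower and 1 higher of the 10, where 39.6% and 42.2% of all tested genes were called lower and higher.

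Genes of one transcription unit had similar loading in some units and not in others. Within psbB, psbT and psbH the mean loadings were -1.25, -1.15 and -1.16. Between neighbours, psbT exceeded psbH by 0.01 ± 0.54 (SD, n = 12) and psbH exceeded psbB by 0.09 ± 0.59, so these 3 did not differ beyond their spread. The loading of psbF exceeded that of psbE by 0.39 ± 0.57 (9 of 12 extracts) and that of psbJ by 0.53 ± 0.67 (11 of 12 extracts). In the third unit psbD exceeded psbC by 1.75 ± 1.13, in 11 of 12 extracts, and psbC exceeded psbZ, further along, by 0.21 ± 0.48.

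Ordered from the highest mean loading to the lowest, the genes ran psbD, psbC, psbT, psbH, psbB, psbI, psbF, psbE, psbJ and psbA. Between neighbours in this order only the steps from psbD to psbC and from psbC to psbT (1.1 ± 0.65, in 12 of 12 extracts) were larger than 1 SD over the extracts; the others were between 0.01 and 0.46. Coding length did not order the genes: the 4 longest (psbA, psbD, psbC and psbB, from 1062 to 1527 bases) held both the highest and the lowest loading.

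The position of small polysomes differed from gene to gene: by median, psbD and psbA lay between the other fractions there, and psbC was highest there (11.85). Compared with non-polysomal RNA, psbA was lower on small polysomes by -1.05 ± 0.28 (SE, adjusted p = 0.0017) and was the only one of the 10 called, where 29.2% of all tested genes were lower and 33.5% higher. With the block there were 4 lower and 1 higher (32.5% and 37.3% of all): psbI (-0.33, adjusted p = 0.00085), psbJ (-0.42, adjusted p = 0.0058) and psbT (-0.33, adjusted p = 0.026) joined psbA, and psbD was higher by 1.21 (adjusted p = 1.1e-08). In the fit without the block, psbD had an SE of 0.60 and an adjusted p of 0.077. The difference was above 0 in 10 of 12 extracts for psbD and below 0 in 12 of 12 for psbA. Without replicate 1, ZT18 replicate 1 or ZT18 replicate 2, the fit without the block called 2 genes.

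From small to large polysomes 7 genes were lower and 0 higher, against 31.2% and 30.0% of all tested genes. These were psbA, psbB, psbE, psbF, psbI, psbJ and psbT, with psbE at -2.17 ± 0.48 and psbJ at -1.93 ± 0.21 (SE) showing the lowest values. For psbB (-1.35) and psbT (-0.82) the call ended without replicate 3, at adjusted p-values of 0.101 and 0.117. The values of psbC (-0.25 ± 0.23), psbH (-1.01 ± 0.62) and psbD (0.48 ± 0.60) did not pass. Within extracts, using the replicate block, psbC (adjusted p = 0.025) and psbH (1.7e-06) were also lower and psbD higher (0.0032), making 9 lower and 1 higher, against 34.4% and 33.7% of all. Thus, on the array's own scale, psbE, psbF and psbB dropped between small and large polysomes, whereas psbA dropped at both steps. The small minus non-polysomal values of psbE, psbF and psbB were -0.05, -0.13 and 0.09. The array's poly-A controls, probe sets for bacterial transcripts, changed by -0.44 ± 0.51 from non-polysomal to small polysomal arrays (SD, n = 12). From small to large polysomal arrays they changed by -1.18 ± 0.37, close to psbB and more than psbT. The 13 of these controls with a mean of at least 4 went from a mean of 8.12 to 6.02. That fall was close to that of psbE and larger than that of psbJ. The part of these shifts in the steps of the genes was not tested.

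The 4 times asked whether the loading moved over the day. At ZT0 psbD loading was 1.97, 2.04 and 2.41 in the 3 extracts, at ZT6 3.1, 2.91 and 3.64, at ZT12 2.58, 2.18 and 1.21, and at ZT18, in the dark, -0.12, -1.33 and -0.30. All 3 night values were below the other 9, and all 3 ZT6 values were above them. In ZT18 replicate 1 the psbD values were 3.78, 3.65 and 3.66 in the 3 fractions, all near the bottom of its range. In ZT6 replicate 1 the non-polysomal value was as low (3.68), while the large polysomal one was 6.78. The means were 2.14 ± 0.24, 3.21 ± 0.38, 1.99 ± 0.70 and -0.58 ± 0.65 (SD, n = 3).

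The psbC loading had a lower mean than psbD at ZT0, ZT6 and ZT12 and nearly the same at ZT18 (-0.65 against -0.58). The psbC loading was also highest at ZT6 and lowest at ZT18. It was 0.83, 0.28 and 0.70 at ZT6, above 0 in every extract, and -0.60, -0.41 and -0.92 at ZT18, below 0 in every extract. At ZT0 it was -0.29, 0.21 and 0.04, and at ZT12 0.25, -0.39 and -0.38, which overlap. The psbB loading was -0.24, 0.56 and 1.11 at ZT6 and -2.63, -2.34 and -2.24 at ZT18, with no overlap between these times, and its ZT0 and ZT12 means were -1.62 and -1.47. The large polysomal psbB means were nearly flat, at 6.29, 6.41, 6.40 and 6.40 at ZT0, ZT6, ZT12 and ZT18. The non-polysomal psbB means were 7.91, 5.93, 7.87 and 8.80. The psbA loading overlapped more between times, with -2.45, -1.87 and -0.91 at ZT6 and -3.58, -2.39 and -3.17 at ZT18.

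**Figure D3:**
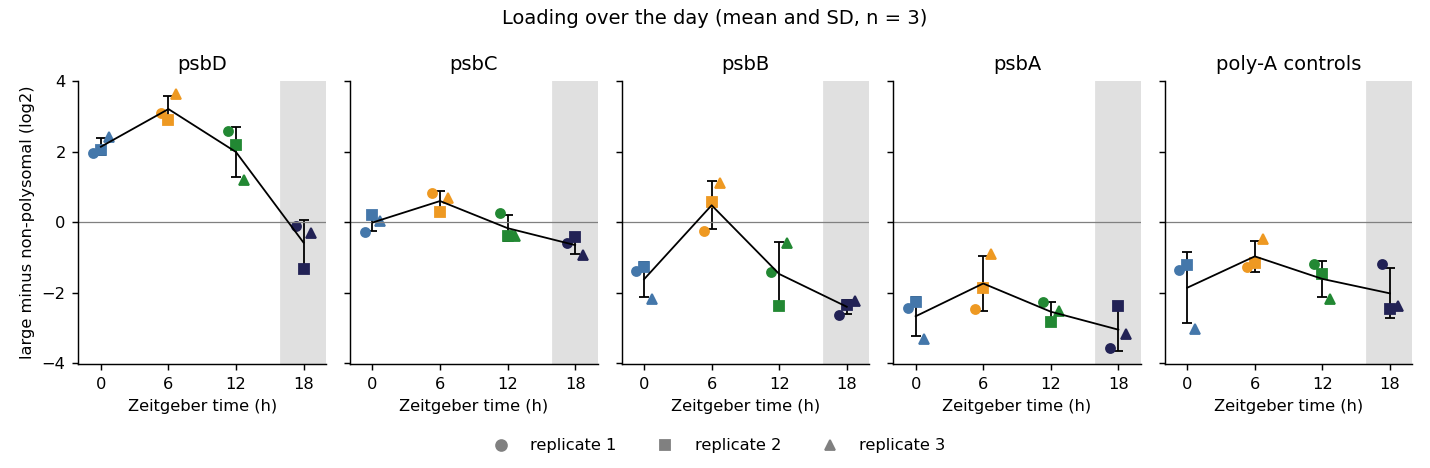
Large minus non-polysomal difference (log2, vertical axis) of psbD, psbC, psbB, psbA and the mean of the poly-A control probe sets against Zeitgeber time in hours; points are the 3 extracts of a time, the line and bars are mean and SD, and grey marks the dark. Means of all 5 are highest at ZT6 and lowest at ZT18, and psbD falls from 3.21 at ZT6 to -0.58 at ZT18.

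The mean loading was highest at ZT6 in 10 of 10 genes and lowest at ZT18 in 9 of 10, psbJ being lowest at ZT0 (-2.84 against -2.37 at ZT18). In 9 genes, all but psbA, the 3 ZT6 values lay above the other 9, as in 1.18% of all tested genes. In psbC, psbD, psbH and psbI the 3 ZT18 values lay below the other 9, as in 2.25% of all tested genes. The 10 genes share their extracts, and their loadings correlated over the 12 extracts with a median Pearson r of 0.80 over 45 pairs (0.26 to 0.94), so they are not 10 separate observations of this order. The order was not particular to them: psbK, psbL, psbM, psbN and psbZ, plastid genes outside the 10, also had their highest mean loading at ZT6 and their lowest at ZT18.

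In the moderated F test over the 4 times without the block, 0 of 10 genes passed (limma, adjusted p from 0.203 to 0.779; 1 gene at an unadjusted p under 0.05), and 2.85% of all tested genes did. When the extract was a replicate block, 10 of 10 passed, against 11.2% of all tested genes. For psbD the adjusted p was 4.3e-06, and it stayed between 1.5e-06 and 0.0058 when single extracts, single replicate numbers or ZT18 replicates 2 and 3 were left out. The adjusted p of psbI was 3.8e-05, of psbB 0.00017, of psbT 0.00046 and of psbH 0.00089. For psbE and psbF it was 0.014, for psbC 0.021, for psbJ 0.028 and for psbA 0.049. The count fell to 5 without ZT6 replicate 3, to 6 without ZT6 replicate 2, and to 8, 5 and 4 without replicates 1, 2 and 3.

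Time by time, 6 genes were lower on large polysomes at ZT0, 2 at ZT6, 5 at ZT12 and 7 at ZT18, where 27.0%, 30.5%, 28.0% and 25.2% of all tested genes were. Without the block only psbD was higher at any time, at ZT6 (3.21, adjusted p = 0.022), where 28.7% of all tested genes were higher. At ZT0, ZT12 and ZT18, 0 of the 10 were higher, against 29.1%, 28.2% and 29.0% of all. With the block the counts lower were 8, 5, 8 and 9 (30.8%, 34.4%, 32.0% and 28.8% of all). The counts higher were then 1, 2, 1 and 0 (33.6%, 32.7%, 32.0% and 33.0% of all): psbD at ZT0 (adjusted p = 1.5e-07), ZT6 and ZT12, and psbC at ZT6 (0.60, adjusted p = 0.0084). At ZT18 psbD was not called with or without the block (adjusted p = 0.066 and 0.702). The counts called without the block depended on single extracts, each of 3 arrays. At ZT0 they fell to 3 without ZT0 replicate 2 or 3, and at ZT6 to 1 without ZT6 replicate 1 or 2. At ZT12 they fell to 2 without ZT12 replicate 2 and to 3 without ZT12 replicate 1 or 3. Leaving out a replicate number at all times, again without the block, gave 2 at ZT0 and 4 at ZT18 without replicate 3, and at ZT12 8, 2 and 2 without replicates 1, 2 and 3.

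The array also carries 27 probe sets for bacterial transcripts with an added poly(A) tail, the poly-A controls, which are not plant genes. When and in what amount such transcripts were added is not given in the sources used here. Their mean went down from non-polysomal to large polysomal arrays in 12 of 12 extracts, by -1.61 ± 0.73 (SD). It was -1.86 ± 1.01 at ZT0, -0.97 ± 0.43 at ZT6, -1.61 ± 0.51 at ZT12 and -2.02 ± 0.71 at ZT18, highest at ZT6 and lowest at ZT18 as in 9 of the 10 genes. In non-polysomal arrays the poly-A control mean was 5.81, 4.87, 5.67 and 6.44 at ZT0, ZT6, ZT12 and ZT18. On large polysomal arrays it was 3.94, 3.90, 4.06 and 4.42. The 18 hybridisation controls, which check the labelled sample on the array, were lower by -0.75 ± 0.22, also in 12 of 12 extracts. Their means were -0.71, -0.54, -0.70 and -1.04 at ZT0, ZT6, ZT12 and ZT18, and all 3 ZT18 values (-1.01, -1.12 and -1.0) lay below the other 9, as in psbC, psbD, psbH and psbI. In the plant's GAPDH control, the 3' probe set gained 0.45 ± 0.26 on the 5' one from non-polysomal to large polysomal arrays, above 0 in 12 of 12 extracts. Ubiquitin gained 0.21 ± 0.27 (8 of 12) and actin, whose 3' probe set is set against the middle one, 0.28 ± 0.47 (9 of 12). The part of these shifts in the loading of the 10 genes was not tested.

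Relative to the poly-A controls, whose mean was subtracted from every array, the zero point of the genes moved. Their order could not change, since the same value was taken from all genes of an array. Loading of psbD became 3.30 ± 0.37 (SE, adjusted p = 2.0e-13) and of psbC 1.56 ± 0.25 (adjusted p = 4.4e-08), each above 0 in 12 of 12 extracts. Against the mean of all 27 controls, psbA and psbJ were lower. Loading of psbA was -0.89 ± 0.25 (adjusted p = 0.00077) and of psbJ -0.74 ± 0.23 (adjusted p = 0.0027), each below 0 in 11 of 12 extracts. The other 6 did not pass: psbE was at -0.60, psbF at -0.21, psbI at -0.10, psbB at 0.36, psbH at 0.45 and psbT at 0.46. So 2 of 10 were lower and 2 of 10 higher, where 2.79% of all tested genes were lower and 85.6% higher, and the median of the 10 genes was 0.13 against 1.65 over all tested genes. With the extract as a replicate block psbE was also lower (adjusted p = 0.0018) and psbH (0.020) and psbT (0.018) also higher (3.58% and 88.4% of all). The call of psbJ ended without replicate 2 (-0.66, adjusted p = 0.076). Subtracting 1 mean gave all genes of an array the same noise, and limma shares information on the spread between genes. The SE of psbD was 0.60 without the subtraction and 0.37 with it. The p-values on this scale may therefore be too small for the spread of a single gene. Only 13 of the poly-A controls had a mean of at least 4, the limit that tested genes had to meet. Against these 13 brighter controls, which fell by 2.69 ± 0.96, 0 genes were lower and 7 higher (0.248% and 96.5% of all). There psbA was at 0.19 and psbJ at 0.34, so their lower calls depended on including the dimmer controls.

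The low night value of psbD was still there on this scale. Relative to the poly-A controls its loading was 3.32, 3.24 and 5.43 at ZT0, 4.36, 4.07 and 4.11 at ZT6 and 3.77, 3.64 and 3.39 at ZT12. At ZT18 it was 1.09, 1.13 and 2.09, below the other 9. With this scaling and the block, 3 genes passed the F test over the times, psbD (adjusted p = 8.4e-05), psbH (0.035) and psbB (0.041), where 16.4% of all tested genes did. The control mean is one measurement shared by all genes of an array, so its own noise entered each of these values. It also entered the spread that limma shares between genes, so the p-values of these tests may be too small.

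Transcript levels, taken as the mean of the 3 fractions of an extract, passed no test between times in any of the 10 genes. For psbD they were 6.11 to 7.88 at ZT0, 5.50 to 7.36 at ZT6, 5.65 to 7.25 at ZT12 and 3.70 to 9.30 at ZT18. For psbA they were 10.56 to 11.58, 10.36 to 11.23, 10.25 to 11.87 and 10.56 to 12.23. Over the 4 times 0 of 10 genes passed in limma (adjusted p from 0.234 to 0.977, 0 genes at an unadjusted p under 0.05), while 58.1% of all tested genes did. From ZT18 to ZT6 psbT differed by -0.98 (adjusted p = 0.105), psbB by -1.34, psbI by -0.92 and psbA by -0.83. Again 0 passed, with 1 at an unadjusted p under 0.05, against 37.9% of all tested genes. Between ZT12 and ZT0 all 10 differences lay between -0.33 and 0.39, with 0 called and 0 at an unadjusted p under 0.05, against 36.8% of all tested genes.

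**Figure D4:**
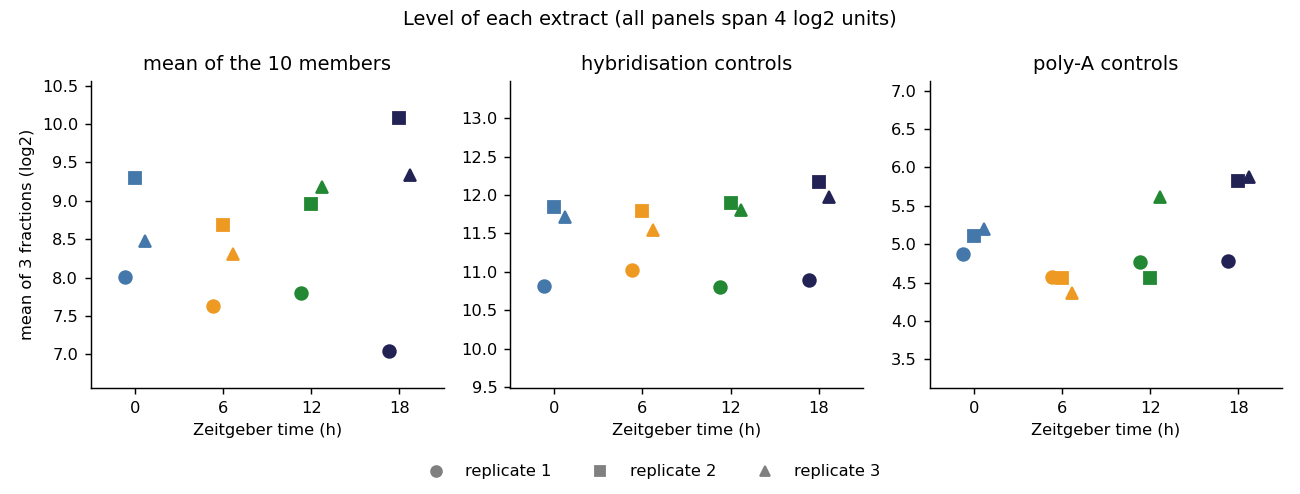
Level of each extract (log2, mean of 3 fractions, vertical axis) against Zeitgeber time in hours for the mean of the 10 genes, the hybridisation controls and the poly-A controls; each point is 1 extract, shaped by replicate, and all panels span the same range of 4. Replicate 1 is the lowest of its time in the mean of the 10 genes and in the hybridisation controls at 4 of 4 times, and in the poly-A controls at 2 of 4.

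Replicate 1 stood apart in these levels. The mean of the 10 genes was 7.04 to 8.01 in the 4 extracts of replicate 1 and 8.31 to 10.08 in the other 8. Replicate 1 was the lowest of its time at 4 of 4 times in 9 of the 10 genes, and at 2 of 4 in psbJ. The hybridisation controls did the same, with 10.80 to 11.03 in replicate 1 and 11.55 to 12.17 in the others. The poly-A controls overlapped, at 4.57 to 4.87 against 4.37 to 5.88. Whether these differences have a common source was not tested. The night levels changed with the replicates kept. Without ZT18 replicate 1, 7 genes (psbA, psbB, psbE, psbH, psbI, psbJ and psbT) were lower at ZT6 than at ZT18 (17.0% of all tested genes). The poly-A controls moved the same way: they were at 4.57, 4.56 and 4.37 at ZT6 and at 5.82 and 5.88 in these 2 night extracts. Their part in these calls was not tested. With ZT18 replicate 1 as the lone night extract, assumed to vary like the other times, psbD, psbE and psbF were higher at ZT6 (2.82, 2.27 and 1.98; 10.4% of all).

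The median loading of the 10 lay close to that of the other plastid-encoded genes, and psbD lay above them all. Of 52 other tested plastid genes 34 were lower on large polysomes and 2 higher, with a median loading of -1.46 and a range of -4.19 to 1.12. With the block, 43 were lower and 6 higher. The highest of them was atpB, which encodes a subunit of the ATP synthase, at 1.12 ± 0.37 (SE). So psbD, at 1.69 ± 0.60, ranked first of 62, but its gap to atpB was not tested. The remaining photosystem II genes psbK, psbL, psbM, psbN and psbZ had a median of -1.99, and psbZ, behind psbC in its unit, was at -0.27 ± 0.43 (SE, adjusted p = 0.58). Medians were -2.11 for 4 photosystem I genes, -1.67 for 4 cytochrome b6f genes, -1.57 for 8 NDH genes and -0.37 for 6 ATP synthase genes, and rbcL, the large subunit of Rubisco, was at -1.70.

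**Figure D5:**
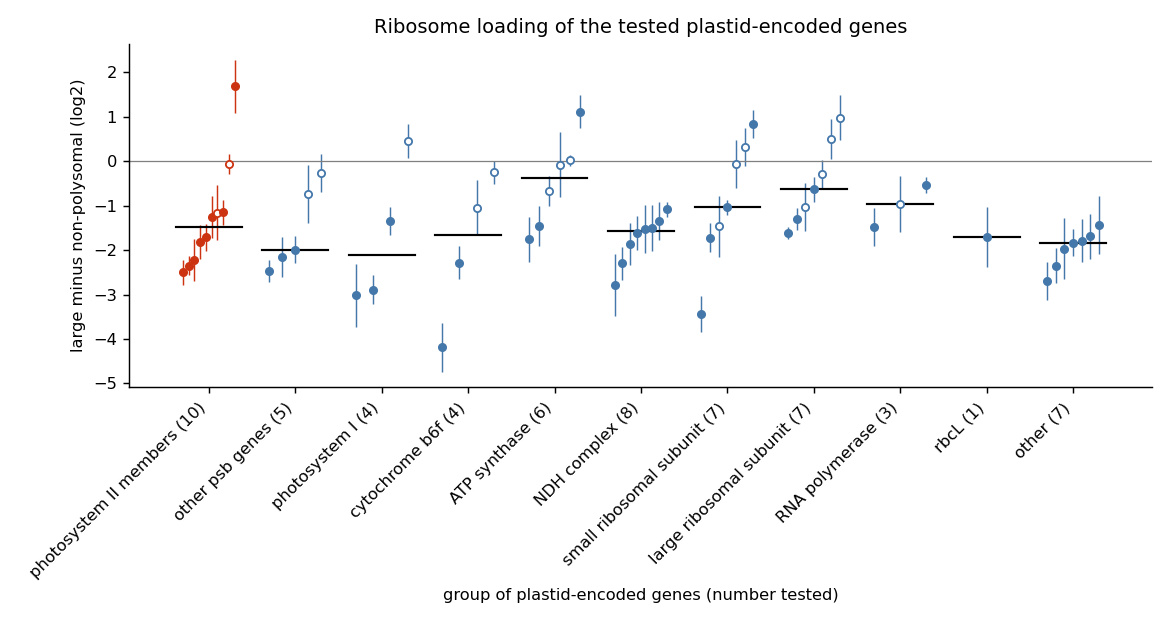
Large minus non-polysomal difference (log2, vertical axis) of the 62 tested plastid-encoded genes by group, with the number tested in each. Points are limma estimates with their SE, filled where the adjusted p is under 0.05, red for the 10 photosystem II genes, and bars are group medians; psbD at 1.69 is the highest of all and the median of its group is -1.48.

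The values of the 10 genes ran together over the arrays with those of other plastid genes. After each gene was centred on its own mean, the non-member genes most like the mean of the 10 over 36 arrays were ndhK and cemA (Pearson r = 0.96) and ndhJ, atpH and psaI (0.95). Of the 50 tested genes with the highest r, 39 were other plastid genes and 8 were among the 10 themselves. The points share fractions and extracts, so these values only describe. The first gene listed on a nuclear chromosome was AT2G07707 at rank 55 (r = 0.78).

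Most of the few nuclear genes of the same complex that could be tested were higher on large polysomes. Of 14 nuclear photosystem II subunits 3 were tested, and all were higher on large polysomes, as were 40.2% of all tested genes: PSBY by 1.66 ± 0.09, PSBW by 0.55 ± 0.09 and PSB27, an assembly protein, by 0.38 ± 0.07 (SE). Their levels also differed over the day, higher at ZT6 than at ZT18 by 1.24, 0.86 and 1.04, where 20.3% of all tested genes were higher. Of 26 factors for assembly, repair and expression 4 were tested and 3 were higher on large polysomes. Among them LPA2, needed for CP43 assembly, was higher by 1.26 ± 0.09 and LPA1, needed for D1 assembly, by 0.65 ± 0.13, followed by the D1-processing protease CTPA at 0.39 ± 0.13, while PAM68 (0.18 ± 0.12) did not pass. Of 3 tested antenna genes LHCB4.3 was higher, and LHCB4.1 and LHCB4.2 were lower.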

How the data were processed

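Messenger RNA was measured on 36 Affymetrix arrays. The authors deposited log2 GCRMA summaries per probe set, for which the submitters' processing notes name affy 1.42.3 and R 3.1. The values were distributed almost alike on every array, with a lowest value of 2.20, so total mRNA per fraction is not seen. Precision is limited by the number of arrays. The brightest single-gene probe set stood for a gene, tested when its mean was at least 4.

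Fractions were compared with limma 3.58.1 in R 4.3.3 on all 36 arrays in 12 groups, and levels on 12 extracts. Adjustment (Benjamini-Hochberg, 2-sided) ran over all 6846 tested genes, and calls were made under 0.05. Fractions of the same time and replicate number deviated together (36 pairs, r 0.13 to 0.683), and were taken as 1 extract. Fractions of different replicate numbers were not compared, so this cannot tell a shared extract from a shared batch of arrays. The fit was tested on simulated data. The alternatives were other scalings, no filter, another variance model, the extract block and left-out replicates. Named genes were all 10 members, at most 3 called genes per list and direction, and the 5 most alike. Members and lists were chosen with earlier results of these data known. Sequences are not used here.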

Additional observations from a re-analysis of the deposited data

Results flagged for a closer look

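The loading of each of the 10 genes differed between the 4 times in the moderated F test of limma with the extract as a replicate block, and in none without it. The adjusted p-values with the block were 0.049 for psbA, 0.00017 for psbB, 0.021 for psbC, 4.3e-06 for psbD, 0.014 for psbE, 0.014 for psbF, 0.00089 for psbH, 3.8e-05 for psbI, 0.028 for psbJ and 0.00046 for psbT. Of all tested genes 11.2% passed this test with the block and 2.85% without it. The poly-A control mean was also highest at ZT6 and lowest at ZT18. With it subtracted and the block kept, 3 of the 10 passed, against 16.4% of all tested genes.

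For psbD and psbC the sign differed between times on the array's own scale. Loading of psbD was above 0 in 3 of 3 extracts at ZT0, ZT6 and ZT12 and below 0 in 3 of 3 at ZT18, with means 2.72, 3.79 and 2.57 above that of ZT18. Loading of psbC was above 0 in 3 of 3 extracts at ZT6 and below 0 in 3 of 3 at ZT18, 1.25 apart. These differences between single times were not tested. Relative to the poly-A controls both genes were above 0 in 12 of 12 extracts: psbD was at 1.43 ± 0.57 at ZT18 against 4.18 ± 0.16 at ZT6, and psbC at 1.37 ± 0.73 against 1.57 ± 0.47 (SD, n = 3), within its spread.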

How the results depend on the processing

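For large minus non-polysomal loading 8 of the 10 genes were called, and 6 to 9 with replicates or extracts left out. The share of all tested genes called there moved with the setting too. It was 77.8% as reported, 81.8% with the extract block and 92.0% with the block and poly-A control scaling. Settings that moved a count of called genes among the 10 by over 1.5 times follow. Poly-A control scaling gave 4 for large minus non-polysomal, 3 for small minus non-polysomal (1 as reported), 4 for large minus small (7), 3 at ZT0 (6), 3 at ZT12 (5), 2 at ZT18 (7) and 1 for the level ZT6 minus ZT18 (0). The extract as a replicate block gave 5 for small minus non-polysomal, 7 at ZT6 (3), 9 at ZT12, 10 for the F test of loading over the times (0) and 7 relative to the poly-A controls (4). The block with poly-A scaling gave 4 for small minus non-polysomal, 5 at ZT6, 4 at ZT18 and 3 for that F test. The block with hybridisation control scaling gave 4, 7 at ZT6, 7 for the F test and 7 relative to the poly-A controls. The block without ZT18 replicates 2 and 3 gave 5, 7 at ZT6, 9 at ZT12 and 7 for the F test. Median centring gave 2 for small minus non-polysomal, hybridisation scaling 2 there and 1 at ZT6, and leaving out ZT18 replicates 2 and 3 gave 2 there, 3 for the F test of levels (0) and 3 for the level ZT6 minus ZT18. No filter on dim genes gave 3 at ZT0 and 2 at ZT12, and only the 13 brighter poly-A controls gave 7. The replicate number as a replicate block, which the labels do not say is shared between times (same-numbered levels correlated at -0.114 to 0.622 over 18 pairs, differently numbered ones at -0.534 to 0.373 over 36, and 6 of 12 extracts correlated best with their own number, while replicate 1 was lowest at 4 of 4 times in 9 of the 10 genes), gave 1 for the F test of levels and 2 for the level ZT6 minus ZT18. The fits that join the block with a scaling or with left-out samples were added after seeing the data. With replicates or extracts left out, with or without the block, the ranges were 1 to 6 for small minus non-polysomal, 5 to 10 for large minus small, 2 to 9 at ZT0, 1 to 7 at ZT6, 2 to 9 at ZT12, 4 to 10 at ZT18, 0 to 10 for the F test of loading, 3 to 8 relative to the poly-A controls, 0 to 4 for the F test of levels, 0 to 7 for ZT6 minus ZT18 and 0 to 0 for ZT12 minus ZT0.

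Directions that reversed did so mostly with control scaling, which by construction adds the fall of the controls to every gene. For large minus non-polysomal, poly-A scaling, with and without the block, gave psbB 0.36, psbC 1.56 and psbT 0.46, and with the block psbH 0.45; hybridisation scaling gave psbC 0.69 with and without it. For large minus small, poly-A scaling gave, with and without the block, psbC 0.92 and psbT 0.35. By time, poly-A scaling gave psbC 1.85 and psbT 0.46 at ZT0, psbC 1.44 at ZT12 and 1.37 at ZT18, each with and without the block, with the block psbH 0.85 at ZT0 and psbD 1.43 at ZT18, and hybridisation scaling with the block psbC 0.70 at ZT0. Against the 13 brighter controls psbA was 0.19, psbF 0.87, psbI 0.98 and psbJ 0.34. Without ZT18 replicates 2 and 3 the level ZT6 minus ZT18 was 2.82 for psbD and 2.27 for psbE, where fewer samples were left at ZT18. The cause of the other changes was not tested. Loading of psbD kept its sign under all 41 alternatives (1.59 to 3.30) and its call under 40, and psbA kept both under 41 (-2.64 to -0.89). These 41 do not include scaling to the 13 brighter controls, where psbA was above 0.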
